A study of Mus musculus with 44 samples.

Results

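Back skin taken 10 weeks after the end of bleomycin injury was compared with saline-injected back skin, to describe what remained different after a long recovery. The members were the 8 mice labelled 10weeks recovery and the 10 labelled saline, 18 of the 44 mice in the study. All mice were female WT C57Bl/6, 8 weeks old at the start, and received daily subcutaneous injections of 100 µL into the back. Bleomycin, a DNA-breaking drug used to provoke skin fibrosis, was given at 1 U/mL for 4 weeks and then stopped in the recovery mice. The 10 mice sampled at 4 weeks of bleomycin and the 6 sampled at 6 weeks of recovery served as points of reference. The labels give no harvest time for the saline mice, so recovery, age and time since the last injection cannot be told apart. Each library came from one part of a skin biopsy, all layers together, and in such a sample fewer cells of a type and less RNA per cell cannot be told apart.

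Mouse back skin holds epidermis, hair follicles that cycle between growth and rest, a dermis of fibroblasts and collagen, fat, nerves, vessels and resident immune cells, with a thin sheet of striated muscle, the panniculus carnosus, beneath. Bleomycin causes DNA damage, cell death and inflammation, after which fibroblasts lay down matrix. Cells that survive DNA damage can enter senescence, a lasting exit from the cell cycle that cyclin-dependent kinase inhibitors enforce. Resident dermal macrophages take up debris and are known for receptors of the CD209 family and for Cd163.

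Reads counted on genes ranged from 8641894 to 13828614 in the 18 mice, with a median of 9523976 for saline and 12905996 for 10 weeks recovery. The epidermal list (keratins and cornified envelope) had a mean log2 level of 10.03 to 10.99 with saline (median 10.34). At 10 weeks its level was 9.90 to 10.585 (median 10.12). The hair shaft keratin list varied far more, from 4.13 to 12.03 with saline and from 4.06 to 11.10 at 10 weeks. Saline mice 1 and 6 and 10 weeks recovery mice 4 and 7 correlated least with their own group (median Pearson r of 0.942, 0.949, 0.947 and 0.954 across genes, against 0.961 or more in the others). Saline mouse 1 had the highest hair shaft level of its group, saline mouse 6 the lowest, and recovery mice 4 and 7 the lowest pair of theirs, at 4.06 and 4.92. Saline mouse 1 also had the lowest fast-twitch muscle level, 12.13 against 12.87 to 13.73 in the other saline mice. The part of the hair cycle in the results below was not tested.

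Of 17037 genes tested, 519 (3.05%) differed by more than 1.5-fold with an adjusted p below 0.05 in a limma fit of log2(normalized count + 1), and such genes are said here to have passed. The 349 higher genes were 2.05% of those tested and the 170 lower genes 0.998%. In 48 genes (0.282%) every mouse at 10 weeks lay above every saline mouse, and in 25 (0.147%) every mouse lay below; 38 and 15 of these also passed. The median log2 difference of all genes was 0.0007. The balance of directions rested on few mice. Without saline mouse 1, 265 genes were higher and 240 lower, and without the 4 mice named above 158 were higher and 218 lower, 226 of these genes being among the 519. Of the 79 named genes that passed, 24 did not pass without the 4 mice: Casq2, Myh1, Csrp3, Myod1, Sln, Chrna1, Sfrp5, Thbs1, Cdh19, Prx, Mbp, Sox10, Tpsab1, Fos, Fosb, Dusp1, Retnlg, Cxcr2, Ifit1, Ifi44, Ifi27l2a, C2, Cd8b1 and Rgs5.

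Cdkn2a rose most among genes whose groups stood apart. This gene (chr4:89274471-89294653, minus strand, GRCm38) encodes the cell-cycle inhibitors p16Ink4a and p19Arf from separate first exons, and is a common marker of senescent cells. With saline its normalized count was 0 at the lowest, 1.25 at the median and 4.74 at the highest, which are 0 to 4 reads per mouse. At 10 weeks of recovery it was 51.7 at the lowest, 92.5 at the median and 130 at the highest, or 55 to 140 reads. No recovery mouse came near the saline range. The log2 difference was 5.28 (SE 0.33, adjusted p = 9.11e-16), on a scale that understates the change of a gene so low with saline. The deposited values are summed per gene and do not separate the transcripts. The sequences before both RefSeq starts (GRCm38.p6, minus strand, 5′ to 3′, up to the first base annotated as exon) are shown because either could be the source of these reads. The upstream start, that of p19Arf, follows chr4:89294654-89294869, and the start of p16Ink4a follows chr4:89282193-89282442.
Cdkn2a upstream start: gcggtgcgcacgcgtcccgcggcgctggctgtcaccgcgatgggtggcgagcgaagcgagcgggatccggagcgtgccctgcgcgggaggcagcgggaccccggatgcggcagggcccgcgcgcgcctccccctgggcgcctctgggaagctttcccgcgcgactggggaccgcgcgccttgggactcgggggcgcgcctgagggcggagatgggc
Cdkn2a downstream start: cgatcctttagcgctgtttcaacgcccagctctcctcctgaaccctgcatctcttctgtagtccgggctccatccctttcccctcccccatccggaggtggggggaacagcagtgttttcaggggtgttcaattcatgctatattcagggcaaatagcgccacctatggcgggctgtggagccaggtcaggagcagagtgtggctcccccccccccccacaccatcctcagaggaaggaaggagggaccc
Neither holds the letters CANNTG (the E-box, bound by MyoD and related factors), which 66.2% of the 32851 promoter windows of 250 bases hold. The upstream sequence, cut at the first exon, has 216 bases and is shorter than those windows.

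Of 15 genes of cell-cycle inhibition and senescence, 3 rose and 0 fell, with a median log2 difference of 0.02 over the list. Besides Cdkn2a they included Gdf15, a stress-induced cytokine. Gdf15 went from 1.14 to 5.71 with saline (median 3.13) to 4.05 to 16.9 at 10 weeks (median 7.59), a log2 difference of 1.21 (SE 0.24, adjusted p = 0.00155). Its saline counts lay near the floor of 3 reads, which is 2.82 to 3.86 normalized counts in the saline mice. For this gene 7 of 8 recovery mice lay above every saline mouse. Cdkn2b, the neighbour of Cdkn2a that encodes p15Ink4b, had medians of 126 and 192 and a log2 difference of 0.46 (adjusted p = 0.00575), under the fold required. The mean log2 level of the list, which includes Cdkn2a, was 7.45 to 7.85 with saline and 7.98 to 8.34 at 10 weeks, without overlap.

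Among 20 targets of p53, the factor that answers DNA breaks, 1 rose and 0 fell. Within the list 16 had a positive log2 difference, 11 had an unadjusted p below 0.05, and the mean log2 level of the list was 8.67 to 8.81 with saline and 8.85 to 8.99 at 10 weeks, without overlap. The share of all tested genes at an unadjusted p below 0.05 is not given. Counts of members below it, for this and later lists, thus have no background to be set against. List levels were not tested, and the lists were chosen with earlier results of these data known. Eda2r, a member of the TNF receptor family, had 38.1 to 172 normalized counts with saline (median 123) and 178 to 299 at 10 weeks (median 224), with no overlap (log2 difference 1.01, SE 0.22, adjusted p = 0.00311). Cdkn1a, which encodes the inhibitor p21, had medians of 3158 and 4178, and its log2 difference of 0.37 (SE 0.06, adjusted p = 0.000124) was too small to pass. In all, 6 of its recovery mice lay above every saline mouse.

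**Figure D1:**
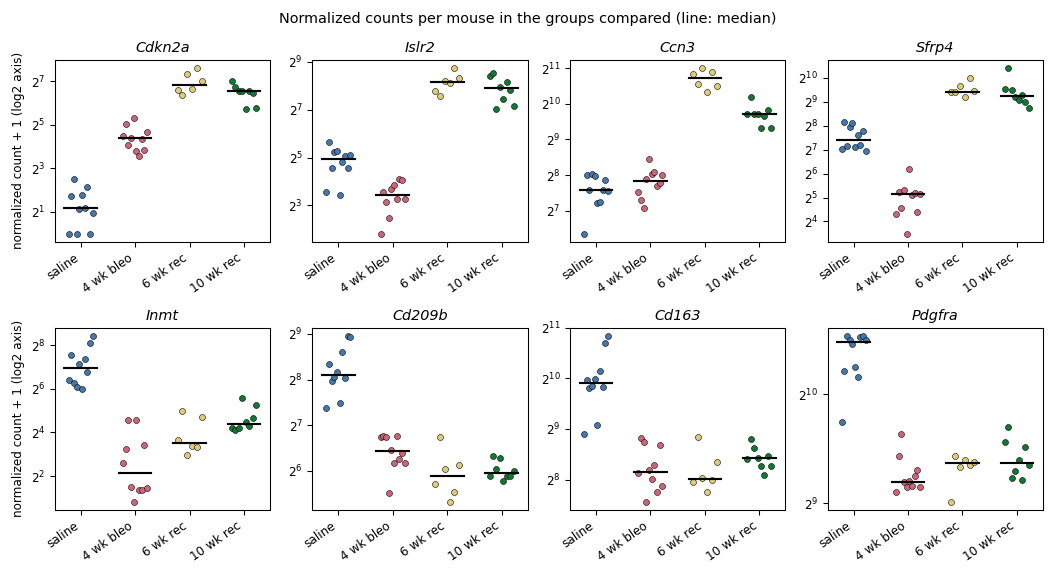
Normalized count plus 1 (log2 axis, a separate range for each gene) of 8 genes in every mouse given saline, 4 weeks of bleomycin, or 6 or 10 weeks of recovery; each point is a mouse and the line is the group median. All 8 mice at 10 weeks lie above every saline mouse for Cdkn2a, Islr2, Ccn3 and Sfrp4, and below every saline mouse for Inmt, Cd209b, Cd163 and Pdgfra.

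The collagens that form the bulk of dermal matrix were not among the genes that passed. Of 11 fibrillar collagens, 0 rose and 0 fell (limma), with a median log2 difference of -0.20; 3 had an unadjusted p below 0.05, 0 were called by edgeR and 2 by DESeq2. Col1a1 had 18893 to 57983 normalized counts with saline (median 28540) and 11523 to 28851 at 10 weeks (median 18249), and its log2 difference of -0.72 (SE 0.25) had an adjusted p of 0.0754. Col1a2 gave -0.72 (SE 0.24, adjusted p = 0.0683), and Col3a1, named after its values were seen, gave -0.45 (adjusted p = 0.279). Without the 4 mice named above, Col1a1 and Col1a2 passed as lower. Col8a1, a short-chain collagen of vessels and remodelling tissue outside this list, rose from 63.0 to 120 (median 82.2) to 175 to 502 (median 353), with no overlap (log2 difference 1.90, SE 0.19, adjusted p = 3.28e-09). Among 17 genes that assemble and crosslink collagen, P4ha3, a subunit of prolyl 4-hydroxylase, was the 1 that rose, by 1.78 (SE 0.33, adjusted p = 0.000613). Lox, the lysyl oxidase that crosslinks collagen, had medians of 611 and 642 (log2 difference 0.07, adjusted p = 0.87).

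Matricellular genes, whose secreted products bind matrix and signal to cells, were higher where they passed. Of 20 tested, 6 rose and 0 fell: Ccn3, Ccn1, Ccn2, Cthrc1, Thbs1 and Spp1, with a list median of 0.21. Ccn3 (NOV) had 81.1 to 261 normalized counts with saline (median 192) and 633 to 1170 at 10 weeks (median 842), a log2 difference of 2.14 (SE 0.21, adjusted p = 1.69e-09). Ccn2 (CTGF), a mediator of fibrosis downstream of TGF-beta and YAP, went from a median of 532 to 1097 (0.94, SE 0.15, adjusted p = 8.23e-05), and Ccn1 (CYR61) from 289 to 531 (0.95, SE 0.13, adjusted p = 8.8e-06). The 3 CCN genes had groups that did not overlap. Ankrd1, a gene of stretched muscle that is also a common target of YAP, rose by 2.52 (SE 0.34, adjusted p = 4.86e-06), from 5.15 to 79.6 (median 29.8) to 84.6 to 230 (median 124). Cthrc1, a marker of scar-forming fibroblasts, had medians of 54.2 and 91.5 and passed with an adjusted p of 0.0274 (0.97, SE 0.28), a call lost in 5 of the 18 fits that left out 1 mouse. Spp1 (osteopontin) rose by 0.76 (adjusted p = 0.00462) and Thbs1 (thrombospondin 1) by 0.86 (adjusted p = 0.0322). Postn, which encodes periostin, had medians of 6361 and 6062 (log2 difference 0.04, adjusted p = 0.915).

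Fibroblast genes split in direction. Of 20 tested, 3 rose (Sfrp4, Sfrp2, Mfap5) and 2 fell (Inmt, Pdgfra). Sfrp4, which encodes a secreted inhibitor of WNT, had 121 to 283 normalized counts with saline (median 170) and 423 to 1359 at 10 weeks (median 603), with no overlap (log2 difference 1.84, SE 0.29, adjusted p = 8.84e-05). Sfrp2, its relative, went from a median of 108 to 279 (1.25, SE 0.29, adjusted p = 0.00658), and Mfap5, a microfibril component, from 500.4 to 762 (0.64, SE 0.15, adjusted p = 0.00729). Inmt, a methyltransferase expressed in some fibroblasts, fell most of all genes with groups apart: it had 61.8 to 341 with saline (median 124) and 16.2 to 46.3 at 10 weeks (median 20.1), a log2 difference of -2.41 (SE 0.48, adjusted p = 0.00136). Pdgfra, the PDGF receptor that marks most dermal fibroblasts, had 856 to 1481 (median 1425) and 594 to 831 (median 661), a log2 difference of -0.93 (SE 0.13, adjusted p = 7.79e-06). Every recovery mouse lay below every saline mouse for both.

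Of 17 secreted regulators of WNT signalling, 4 rose and 1 fell. Sfrp2 and Sfrp4 belong to this list too. Sfrp5, another secreted inhibitor of the same family, rose by 1.07 (SE 0.24, adjusted p = 0.00459), and without the 4 mice named above it did not pass, leaving 3 higher. Wnt2, a ligand, had 21.8 to 50.7 normalized counts with saline (median 36.7) and 61.4 to 184 at 10 weeks (median 81.5), without overlap (1.31, SE 0.26, adjusted p = 0.00129). Rspo1, which strengthens WNT signalling and is named outside the rule for named genes, fell from a median of 193 to 100 (-0.92, SE 0.18, adjusted p = 0.00128). Mmp27 was the 1 of 16 matrix metalloproteinases that fell (-1.13, SE 0.21, adjusted p = 0.000497), and Mmp3, which encodes stromelysin 1, had medians of 346 and 412 (0.27, adjusted p = 0.369).

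Islr2 (chr9:58196297-58204319), a membrane protein with immunoglobulin and leucine-rich repeats, came next after Cdkn2a and Tnnc1 among the rises with groups apart. It had 9.70 to 49.1 normalized counts with saline (median 29.6) and 130 to 369 at 10 weeks (median 237), a log2 difference of 3.09 (SE 0.31, adjusted p = 2.23e-09). It overlaps Islr on the same strand, and how reads on both were counted is not given in the sources used here. Tmem178 (2.04), Slc22a2, an organic cation transporter (2.45), and Hc, complement C5 (2.89), completed the 10 largest rises. Hc and Slc22a2 rested on few reads, 0 to 3 and 0 to 4 per saline mouse and 4 to 21 and 6 to 18 per recovery mouse. The remaining large falls were those of Aox3, an aldehyde oxidase (-1.75), Stc1, stanniocalcin 1 (-1.47), Rnf112 (-1.41) and Sgpp2, a sphingosine-1-phosphate phosphatase (-1.24), each with an adjusted p of 0.00575 or less. The Rnf112 call was lost with a pseudocount of 0.1.

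Genes of slow-twitch muscle fibres held the highest share of members that rose among the 39 lists examined. Of 15 slow-twitch genes, 12 rose and 0 fell, and the list median was 1.13. Tnnc1 encodes the troponin C of slow and cardiac muscle (chr14:31208312-31211729, plus strand). It had 0 to 37.6 normalized counts with saline (median 10.2) and 46.9 to 1687 at 10 weeks (median 89.6), a log2 difference of 4.27 (SE 0.60, adjusted p = 7.79e-06). It lies within Nisch on the opposite strand, and the strand setting of the counting is not given in the sources used here. Myh7, Myl3 and Myl2 also overlap genes on the opposite strand. Myh7, the slow myosin heavy chain, had 0.939 to 206 with saline (median 18.3) and 99.3 to 7898 at 10 weeks (median 312), and 6 of 8 mice exceeded every saline mouse (4.97, SE 0.88, adjusted p = 0.000313). Myl3 (3.47, adjusted p = 0.0015) and Myl2 (3.32, adjusted p = 0.00155) encode light chains of the same myosin. Tnnt1 (2.35, adjusted p = 0.000142), Tnni1 (2.44, adjusted p = 0.000882) and Csrp3 (0.94, adjusted p = 0.0433), members of the list outside the rule for named genes, also rose, though the Csrp3 call was lost in 10 of the 18 single omissions and with edgeR. Casq2, a calcium store protein, rose by 0.81 (adjusted p = 0.0169) and was, with Tnnc1, the other member with groups apart.

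Mice within the recovery group differed widely in these slow-twitch genes. The mean log2 level of the list was 6.03 to 7.63 with saline (median 6.47) and 7.50 to 10.38 at 10 weeks (median 8.18). Recovery mouse 2 held the highest level, and mice 7 and 1 followed with 9.34 and 8.89. Without mouse 2, 11 of the list's genes still rose, with a log2 difference of 3.77 for Tnnc1 (SE 0.56, adjusted p = 3.5e-05, range of the adjusted p over single omissions 3.24e-06 to 5.11e-05). Without the 4 mice named above, 6 rose. In the reference groups the list level was 7.52 to 9.13 at 4 weeks of bleomycin (median 7.975) and 7.62 to 9.35 at 6 weeks of recovery (median 8.52). Tnnc1 lay above saline by a mean log2 difference of 5.22 at 4 weeks of bleomycin and 4.37 at 6 weeks of recovery. These differences from saline were not tested. Fast-twitch genes, which mark most fibres of the skin muscle, had a list level of 12.13 to 13.73 with saline (median 13.51) and 13.20 to 14.24 at 10 weeks (median 13.73). All 19 had a positive log2 difference (median 0.32) and 6 an unadjusted p below 0.05, and 1 of the 19 rose. This was Myh1, the IIx myosin (0.86, SE 0.27, adjusted p = 0.0499), a call lost in 13 of the 18 single omissions. Myh4, the IIb myosin, had medians of 58516 and 54484 (0.12, SE 0.28, adjusted p = 0.895), a difference that turned to -0.06 without saline mouse 1. The part of the amount of muscle in each piece of skin was not tested.

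Some genes of muscle regeneration and denervation rose as well. Of 17 tested, 4 rose and 0 fell, and 1 rose without the 4 mice named above. Myog, the myogenin that drives myoblast differentiation, went from a median of 25.9 to 86.0 (1.56, SE 0.30, adjusted p = 0.000882), and Myod1, the regulator MyoD, from 42.3 to 89.2 (1.15, SE 0.26, adjusted p = 0.00575). Chrna1, the acetylcholine receptor subunit that spreads over denervated fibres, went from 49.5 to 82.9 (0.79, SE 0.17, adjusted p = 0.0036), and Sln, which encodes sarcolipin, from 172 to 378 (1.11, SE 0.24, adjusted p = 0.00361).

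The promoters of the slow-twitch genes are shown because these genes moved together, with matches to the E-box CANNTG in capitals. They are RefSeq windows of GRCm38.p6, read 5′ to 3′ on the strand of the gene and ended before the first annotated exon. Tnnc1 lies at chr14:31208062-31208311 on the plus strand, Myh7 at chr14:54994627-54994876 and Tnnt1 at chr7:4516005-4516225, both on the minus strand.
Tnnc1: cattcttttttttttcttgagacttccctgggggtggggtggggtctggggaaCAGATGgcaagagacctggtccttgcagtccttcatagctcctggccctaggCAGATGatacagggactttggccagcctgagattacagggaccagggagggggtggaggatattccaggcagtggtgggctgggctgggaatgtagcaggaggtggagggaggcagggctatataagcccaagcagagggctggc
Myh7: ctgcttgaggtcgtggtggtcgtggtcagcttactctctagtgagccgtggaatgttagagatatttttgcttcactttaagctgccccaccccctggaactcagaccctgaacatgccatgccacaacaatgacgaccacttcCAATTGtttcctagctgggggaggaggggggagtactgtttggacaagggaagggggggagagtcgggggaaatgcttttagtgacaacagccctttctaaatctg
Tnnt1: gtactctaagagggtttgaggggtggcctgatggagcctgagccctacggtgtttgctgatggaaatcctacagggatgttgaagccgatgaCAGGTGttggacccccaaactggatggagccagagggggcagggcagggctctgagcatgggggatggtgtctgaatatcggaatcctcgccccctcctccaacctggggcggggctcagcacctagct
Of the 15 genes of the list, 14 matched a RefSeq window, and all 14 held at least 1 CANNTG in the 250 bases before a start, against 69.3% of 27025 genes. The E-box reads the same on both strands, so both were searched. The consensus of MEF2, another factor of muscle genes, was found on either strand in 2 of the 14, Casq2 and Myoz2, against 3.42% of all genes. These matches are descriptions of the letters.

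**Figure D2:**
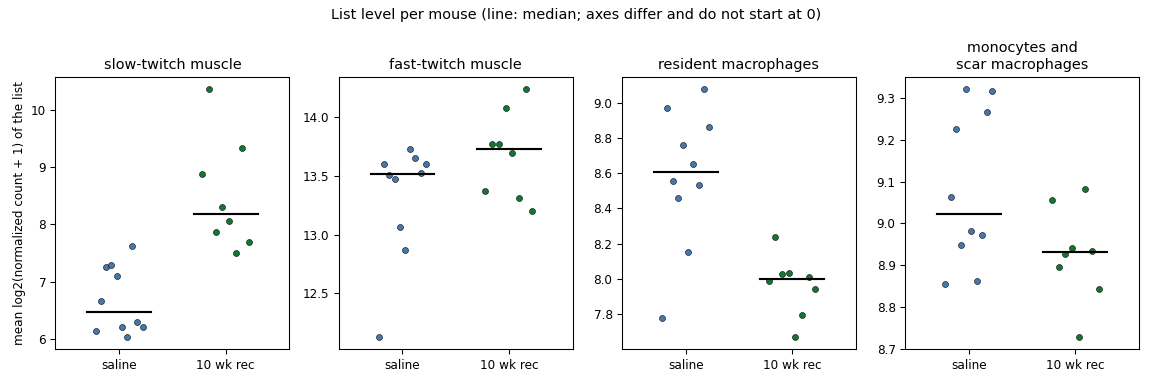
Mean log2(normalized count + 1) of 4 gene lists in each mouse, with the line at the group median and a separate axis for each list that does not start at 0. Slow-twitch levels reach from 7.50 to 10.38 at 10 weeks against 6.03 to 7.63 with saline, while fast-twitch and monocyte levels overlap widely.

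Genes of resident dermal macrophages held the highest share of members that fell among the 39 lists. Of 20 tested, 10 fell and 0 rose, with a list median of -0.58. In the list 18 members had a negative log2 difference and 2 a positive one, up to 1.07. The 10 that fell include Cd209 genes described below. Cd209b, a C-type lectin (chr8:3917655-3926844, minus strand), had 166 to 495 normalized counts with saline (median 275) and 53.5 to 78.6 at 10 weeks (median 60.5), without overlap (log2 difference -2.19, SE 0.21, adjusted p = 1.12e-09). Cd163, the scavenger receptor for haemoglobin and haptoglobin, had 478 to 1828 (median 962) and 271 to 448 (median 343), again without overlap (-1.49, SE 0.22, adjusted p = 3.38e-05). Timd4, a receptor for phosphatidylserine on dying cells, went from a median of 48.0 to 12.5 (-1.49, SE 0.35, adjusted p = 0.00741). Folr2, Clec10a and F13a1, other genes of these cells, fell by 0.61, 0.64 and 0.63 on the log2 scale (adjusted p = 0.0369, 0.0488 and 0.0206). The Clec10a call was lost in 15 of the 18 single omissions and the Folr2 call in 9.

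The Cd209 genes lie within chr8:3743397-4137707, with gaps between some of them, and 5 of the 7 fell. Cd209b gave the largest fall, Cd209g and Cd209f fell by 1.26 and 1.21 (adjusted p = 0.000373 and 0.000178), Cd209d by 1.13 (adjusted p = 1.81e-05) and Cd209c by 0.67 (adjusted p = 0.0151), all on the log2 scale. Cd209a, known from dendritic cells and macrophages, had medians of 677 and 442 and a log2 difference of -0.55 (SE 0.18, adjusted p = 0.0504), and it passed without saline mouse 1, whose 308 normalized counts lay far below the other saline mice. Cd209e, named after its values were seen, gave -0.41 (SE 0.20, adjusted p = 0.26). The genes are close paralogs, and reads shared between them may have been split in ways the files do not show.

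Pan-macrophage and monocyte genes had no member that passed, though 16 of 20 had a negative log2 difference (median -0.21). Of 20 genes of monocytes and scar macrophages, 0 rose and 0 fell in the limma fit, with 5 of them at an unadjusted p below 0.05 and 0 called by edgeR or DESeq2, and their list level was 8.85 to 9.32 with saline and 8.73 to 9.08 at 10 weeks. Cd68, the lysosomal macrophage marker, had medians of 514 and 439 (-0.28, SE 0.21, adjusted p = 0.521). The genes of class II antigen presentation, 10 in number, had 0 that passed by limma, edgeR or DESeq2, and 0 at an unadjusted p below 0.05. Of these genes 9 had a negative log2 difference, with a list median of -0.22. Ccr3, the eotaxin receptor of eosinophils, went from 15.5 to 63.0 (median 24.6) to 3.55 to 13.9 (median 7.57), a log2 difference of -1.65 (SE 0.30, adjusted p = 0.000542). Alox15, a lipoxygenase of eosinophils and some macrophages, went from a median of 86.4 to 37.8 (-1.48, SE 0.33, adjusted p = 0.00452). For both, every recovery mouse lay below every saline mouse.

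Other immune lists had few members that passed. Among 17 genes of B cells and plasma cells 3 rose, all genes of secreted antibodies: Jchain (2.80, SE 0.54, adjusted p = 0.00108), Igkc (2.60, SE 0.59, adjusted p = 0.00532) and Igha (2.22, SE 0.51, adjusted p = 0.00542). Igha had 15.5 to 397 normalized counts with saline (median 41.5) and 110 to 891 at 10 weeks (median 232). Saline mice 5 and 6, at 397 and 193, lay within the range of the recovery mice, and recovery mouse 7 stood above the rest. Of 12 mast cell genes 2 rose, Fcer1a, the IgE receptor chain (1.55, SE 0.32, adjusted p = 0.00231), and Tpsab1, a tryptase (1.16, SE 0.33, adjusted p = 0.0295, 3 to 18 reads per recovery mouse), while Cpa3, the mast cell carboxypeptidase, had medians of 648 and 731 (0.30, adjusted p = 0.182). The Tpsab1 call was lost in 4 of the 18 single omissions, and with edgeR, with only the 2 groups compared and without the 4 mice 1 gene of the list rose. All 12 mast cell genes had a positive log2 difference, with a median of 0.40.

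Interferon-stimulated genes passed in 4 of 35 members and fell in 0: Usp18 (0.85, adjusted p = 1.64e-05), Ifi27l2a (0.82, adjusted p = 0.00551), Ifit1 (0.68, adjusted p = 0.00502) and Ifi44 (0.65, adjusted p = 0.0239), with 1 left without the 4 mice named above. Of 17 acute phase and neutrophil genes, Retnlg (-2.33, adjusted p = 0.00716, 1 to 41 reads per saline mouse) and Cxcr2, the neutrophil chemokine receptor (-1.17, adjusted p = 0.0464), fell. The Cxcr2 call was lost in 14 of the 18 single omissions, and neither gene passed without the 4 mice. Saa3, an acute phase protein, had medians of 3.57 and 5.87 (0.85, SE 0.61, adjusted p = 0.502). Single members fell in the lists of CC chemokines (Ccl19, -0.99, adjusted p = 0.0209) and T cells (Cd8b1, -1.35, adjusted p = 0.04), each of 20. The Cd8b1 call was lost in 11 of the 18 single omissions, with edgeR and with only the 2 groups compared. Of the 20 T cell genes, 18 had a negative log2 difference, with a list median of -0.31. Of 19 complement genes C2 rose (0.61, adjusted p = 0.0126) and C3 fell (-0.70, adjusted p = 0.0407), calls lost in 5 and 12 of the 18 single omissions. The C2 call was also lost without the 4 mice and the C3 call with only the 2 groups compared. This list does not hold Hc, complement C5, whose rise of 2.89 on few reads is given above.

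Schwann cell genes rose as a smaller group. Of 14 tested, 6 rose and 0 fell, with a list median of 0.55. S100b, a calcium-binding marker of Schwann cells, had 47.7 to 92.7 normalized counts with saline (median 69.9) and 105 to 160.3 at 10 weeks (median 117), without overlap (0.80, SE 0.13, adjusted p = 0.000146), and overlaps Dip2a on the opposite strand. The others included Cdh19 (0.81, adjusted p = 0.0249), Prx, a myelin protein (0.61, adjusted p = 0.0475), Sox10, a neural crest factor (0.60, adjusted p = 0.0185), and Mbp (0.59, adjusted p = 0.00694). The Prx and Mbp calls were lost in 11 and 6 of the 18 single omissions, and 1 of the list rose without the 4 mice named above.

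Immediate early genes, which respond within minutes to stress and handling, separated the recovery mice among themselves. Fosb had 14.2 to 49.5 normalized counts with saline (median 20.7) and 22.7 to 254 at 10 weeks (median 124), a log2 difference of 2.08 (SE 0.51, adjusted p = 0.0087). Fos rose by 1.01 (adjusted p = 0.00217) and Dusp1 by 0.79 (adjusted p = 0.000613), so that 3 of 12 rose and 0 fell. Recovery mice 4 to 8 had list levels of 9.40 to 9.70, and mice 1 to 3 had 8.91 to 9.13, within the saline range of 8.73 to 9.28. Without the 4 mice named above, 0 of the list passed in the limma fit, with 6 at an unadjusted p below 0.05.

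**Figure D3:**
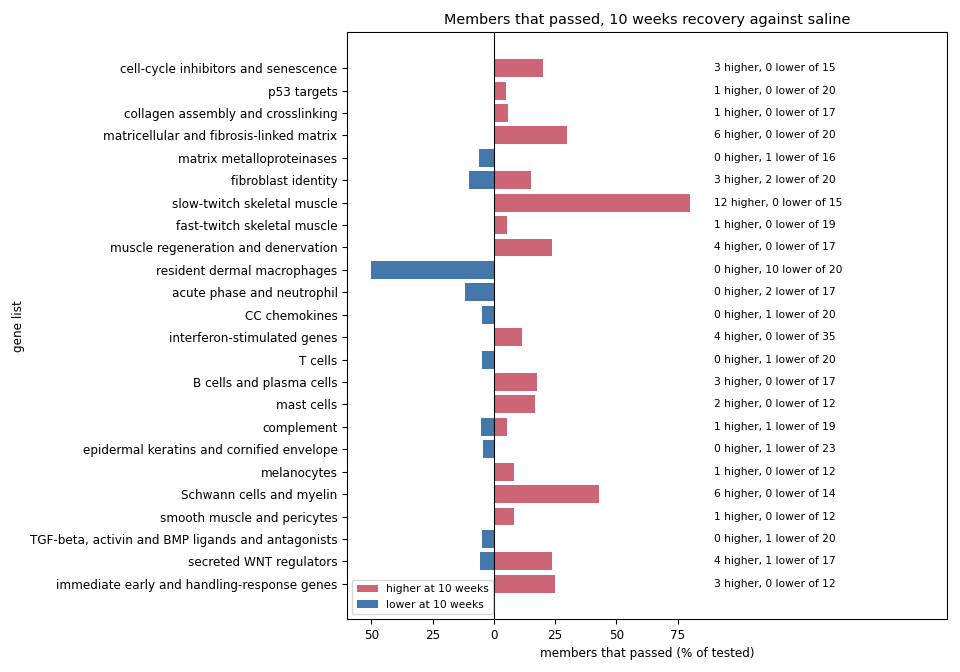
Share of the tested members of each gene list that passed at 10 weeks of recovery against saline, in percent, with higher members to the right and lower members to the left; lists with no member that passed are not drawn. The longest bars are those of slow-twitch muscle, with 12 of 15 higher, and resident macrophages, with 10 of 20 lower.

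Much of the skin gave few or no genes that passed. The lists of fat cells (15 genes), sebaceous glands (14), blood endothelium (18), lymphatic endothelium (8), hair shaft keratins (12), inner root sheath (9), hair cycle regulators (18), the circadian clock (16), cell division (19), small leucine-rich proteoglycans (10), the respiratory chain (23) and red blood cells (5) had 0 in the limma fit. Over the 15 lists with 0 by limma, which also include fibrillar collagens, class II presentation and monocytes, 68 of 208 genes had an unadjusted p below 0.05, and edgeR called 7 and DESeq2 12. The edgeR calls were 5 cell division genes and 2 sebaceous gland genes, all lower. All 19 cell division genes had a negative log2 difference, with a median of -0.54, 17 had an unadjusted p below 0.05 and DESeq2 called 7. All 23 respiratory chain genes (median 0.21) and 17 of 18 blood endothelium genes (median 0.31) had a positive difference, with 12 and 9 at an unadjusted p below 0.05. Of 15 fat cell genes 13 had a positive difference (median 0.40), with 7 at an unadjusted p below 0.05. All 8 lymphatic endothelium genes had a positive difference (median 0.205), with 1 at an unadjusted p below 0.05. Of 14 sebaceous gland genes 11 had a negative difference, with 7 at an unadjusted p below 0.05. Single members passed in the epidermal list (Hrnr, -1.12, adjusted p = 0.000952), among melanocyte genes (Sox10) and in smooth muscle and pericytes (Rgs5, 0.67, adjusted p = 0.000113). Of 23 epidermal genes 14 had a negative difference and 9 a positive one (median -0.33), with 8 at an unadjusted p below 0.05. Without the 4 mice neither Sox10 nor Rgs5 passed, and 3 sebaceous gland genes were lower.

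The genes that stood apart at 10 weeks had reached that point by different courses. Sfrp4 had a median of 34 at 4 weeks of bleomycin, under the saline median of 170, and 688 at 6 weeks of recovery. Islr2 had 9.71 at 4 weeks and 285 at 6 weeks. Both were higher at 10 weeks than at 4 weeks of bleomycin, by 4.44 (adjusted p = 7.46e-16) and 4.49 (adjusted p = 1.48e-15) on the log2 scale. Ccn3 followed with 227 at 4 weeks and 1672 at 6 weeks (1.90 higher at 10 weeks than at 4 weeks of bleomycin, adjusted p = 7.75e-10), and Cdkn2a with 19.8 and 113 (2.06, adjusted p = 2.54e-06). These genes were thus higher after recovery than at the end of the injections.

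Others had been higher at the end of the injections. Ankrd1 had a median of 530 at 4 weeks of bleomycin, 309 at 6 weeks and 124 at 10 weeks of recovery, and was lower at 10 weeks than at 4 weeks of bleomycin by a log2 difference of -1.97 (adjusted p = 1.29e-05). Gdf15 (-2.85, adjusted p = 1.04e-12), Col8a1 (-0.76, adjusted p = 0.00164) and Chrna1 (-2.49, adjusted p = 2.84e-15) shared that direction, and Saa3, named after its values were seen, showed the widest such difference of the genes named here (-5.60, adjusted p = 8.76e-10). Among the genes that were low, Inmt had a median of 3.45 at 4 weeks of bleomycin and was higher at 10 weeks (2.11, adjusted p = 0.000532). Cd209b, Cd163 and Pdgfra had log2 differences of -0.39, 0.22 and 0.15 between 10 weeks and 4 weeks of bleomycin (adjusted p = 0.146, 0.504 and 0.402). Over all genes, 2697 (15.8%) differed in this way from the 4 weeks bleomycin group, 1147 of them higher (6.73%) and 1550 lower (9.1%). These comparisons share the mice at 10 weeks with the comparison against saline. Some genes lay nearer saline at 4 weeks of bleomycin than at 10 weeks of recovery. Slc22a2 had mean log2 differences from saline of 0.71 at 4 weeks, 1.10 at 6 weeks and 2.45 at 10 weeks. Over the same times Ccr3 had -0.56, -1.215 and -1.65, Stc1 -0.39, -1.10 and -1.47, and Sgpp2 -0.25, -0.61 and -1.24. Rnf112 had -2.23, -0.025 and -1.41. None of these passed between 6 and 10 weeks, and the earlier differences from saline were not tested.

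**Figure D4:**
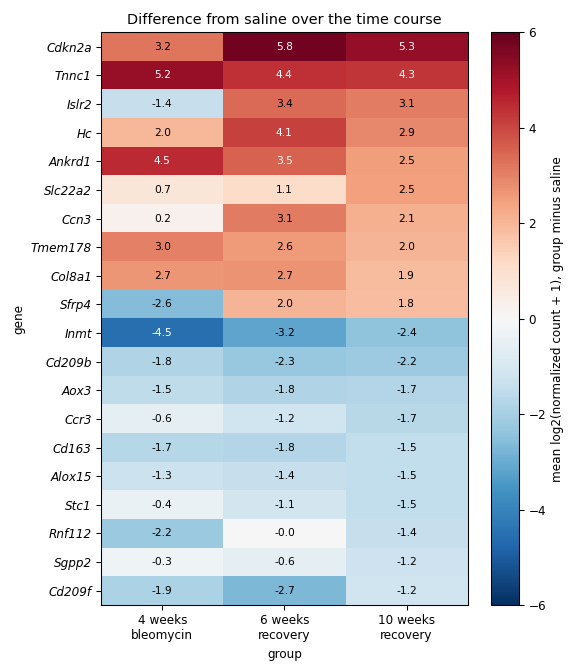
Mean log2(normalized count + 1) of each group minus that of saline for the 20 genes that changed most at 10 weeks, 10 in each direction, among those with groups apart; red is higher and blue lower than saline. Islr2 and Sfrp4 are below saline at 4 weeks of bleomycin and above it in both recovery groups, and Cd209b is near -2 throughout.

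Between 6 and 10 weeks of recovery few genes passed: 15 of 17037 (0.088%), 3 higher (0.0176%) and 12 lower (0.0704%) at 10 weeks. Cthrc1 went from a median of 331 at 6 weeks to 91.5 (log2 difference -1.74, SE 0.31, adjusted p = 0.0047). Lox went from 1228 to 642 (-1.03, SE 0.16, adjusted p = 0.00101) and Mmp3 from 908 to 412 (-0.92, SE 0.18, adjusted p = 0.0104). Cd209f rose between these times from 102 to 247 (1.47, SE 0.23, adjusted p = 0.00101) and Cd209g from 38.9 to 98.8 (1.43, SE 0.26, adjusted p = 0.0047), both still below saline. Cdkn2a (-0.51, SE 0.37, adjusted p = 0.589) and Cd209b (0.09, adjusted p = 0.906) did not pass. This count rested on few mice: it was 30 without recovery mouse 4 at 10 weeks, 6 without mouse 3 of the 6 weeks group and 518 without the 4 mice named above.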

How the data were processed

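Back skin RNA was sequenced as stranded mRNA libraries with paired 50 bp reads, 1 library per mouse. The authors aligned reads to mm10 with STAR 2.4.0, summed reads by gene, scaled each mouse by its DESeq2 1.12.3 size factor, and deposited the normalized counts as a signal table of 43411 genes, of which 42929 (98.9%) matched a symbol. The counting tool, strand setting and annotation are not given in the sources used here. Whole reads were recovered from the steps between values, and 100.0% of values came out whole within 0.01 of a read. Depth was 8641894 to 13828614 reads in the 18 mice. The floor of detection, 3 reads, covers counting error only. In a group, no pair of mice differed by as little as sampling noise (smallest chi-square per degree of freedom 5.06).

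Differences were tested in log2(normalized count + 1) with limma 3.58.1 (mean-variance trend) in R 4.3.3, on 17037 genes averaging above 3. The fit held all 5 groups, with Benjamini-Hochberg adjustment over all genes. A gene passed at over 1.5-fold and an adjusted p below 0.05. A list level is the mean log2 value over its members with a row in the table. The 39 lists hold 633 symbols with a row. Alternatives were tests on recovered reads with edgeR 4.0.16 and DESeq2 1.42.0, other filters, pseudocounts, thresholds and scalings, a replicate block, and leaving out mice. The limma, edgeR and DESeq2 tests of 10 weeks recovery against saline were tried on simulated data.

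The samples, gene lists and rules were chosen with earlier results of these data known. Genes named were the 10 largest rises and 10 largest falls among genes that passed with groups apart, the first 2 members of each list and up to 4 of its members that passed with the largest difference, and Cdkn2a, Tnnc1, Inmt and Cd209b. Another 17 genes were named after their values were seen, and some genes that the rule selects are not reported here. Coordinates are from GENCODE vM21 (GRCm38) and promoters from RefSeq (GRCm38.p6). The labels name no sequencing batch, so none was examined.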

Additional observations from a re-analysis of the deposited data

Results flagged for a closer look

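Samples far from the rest of their group by Dixon's criterion were sought in 202 groups of values, for the genes and lists named, and 12 were found, where chance flags about 1 in 20 groups. In 6 genes saline mouse 1 was the lowest of its group: Ccn3 (81.1 normalized counts), Pdgfra (856), Cd209a (308), C3 (1695), Mbp (569) and Myod1 (11.9). Sox10 was lowest in saline mouse 2 (84.5), Thbs1 highest in saline mouse 8 (4100) and Ifi44 highest in saline mouse 10 (59.1). Recovery mouse 7 was highest for Igha (891) and for the level of the list of B cells and plasma cells (4.66), and saline mouse 5 for the level of the immediate early list (9.28).

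For 5 named genes the difference from saline at 10 weeks of recovery itself differed from that at 6 weeks (limma contrast of both recovery groups): Cd209f by 1.47, Cd209g by 1.43, Cthrc1 by -1.74, Lox by -1.03 and Mmp3 by -0.92 on the log2 scale.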

How the results depend on the processing

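Of the 79 named genes that passed, 61 passed in all 18 fits that left out 1 mouse of the groups compared, and the others were lost in at least 1. Leaving out 1 mouse gave 376 to 586 genes against saline (239 to 389 higher, 129 to 240 lower), 6 to 30 against 6 weeks recovery and 2579 to 2747 against 4 weeks bleomycin. Counts that moved by over 1.5 times were the following. With only the 2 groups compared, 326 genes passed against saline (211 higher) and 59 against 6 weeks recovery. With DESeq2, 285 were lower than saline and 63 passed against 6 weeks recovery. With 42 mice (without saline mouse 1 and a mouse of 2 weeks bleomycin), 279 were lower than saline, with 306 higher, and 58 passed against 6 weeks recovery. Without a fold threshold, 994 passed against saline (603 higher, 391 lower) and 5576 against 4 weeks bleomycin. Without the 4 mice least like their own group, an alternative chosen after seeing the data, 376 passed against saline, 158 of them higher, and 518 against 6 weeks recovery. Of the named genes that passed, 55 passed there. The cause was not tested. Scaling by TMM gave 334 higher and 177 lower than saline, and quantile normalization 320 and 202.

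Myh4 reversed to -0.022 with quantile normalization, to -0.06 with 42 mice and to -0.27 without the 4 mice, where Lox reversed to -0.021. Leaving out 1 mouse gave -0.06 (saline mouse 1) to 0.205 for Myh4. None of these passed. The difference in list level fell from 0.55 to -0.012 for B cells and plasma cells, and from 0.58 to 0.11 for immediate early genes, when the median over the list replaced the mean. In each list 3 members had passed.

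The replicate numbers do not pair mice. Deviations of mice with the same number correlated by -0.30 to 0.38, and 1 of 8 mice correlated best with its own number. With a replicate block, 643 genes passed against saline (423 higher), 18 against 6 weeks recovery and 2678 against 4 weeks bleomycin. Genes under about 10 reads per mouse, such as Hc, Slc22a2 and Tpsab1, are limited by depth.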
